A study of Mus musculus with 2 samples.

Results

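The phagocyte NADPH oxidase subunits analysed here were 5 genes of the 32285 in the count tables, Cybb, Cyba, Ncf1, Ncf4 and Rac2, chosen by symbol and present once each. They were read in mouse CD45-positive cells taken from human 143B osteosarcoma tumors, 143B being an established human osteosarcoma cell line, grown under the skin of female nude mice that were 4 weeks old at the start. The control IgG library came from mice given human IgG1 and the anti-CD3L1 library from mice given an antibody against CD3L1, both at 10 mg/kg in 4 injections 3 days apart. Each library pooled immune cells from 3 tumors, and no record tied a cell to its tumor. Nude mice lack T cells, so the host's immune cells here were myeloid cells, NK cells, innate lymphoid cells, dendritic cells and few others. With 1 library a group there was no replicate check and no test. Every interval given is a 95% interval for counting error only, and the antibody, the 3 pooled tumors and the library preparation cannot be told apart.

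The oxidase makes superoxide in phagocytes by passing electrons from NADPH across a membrane to oxygen, and this burst kills ingested microbes. Cybb encodes the catalytic membrane subunit gp91phox and Cyba its membrane partner p22phox. Ncf1 encodes the cytosolic organiser p47phox and Ncf4 the cytosolic p40phox, which move to the membrane when the cell is activated. Rac2 encodes a small GTPase of blood cells that completes the active complex. Inherited loss of the membrane or cytosolic subunits causes chronic granulomatous disease.

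After filtering, 8557 cells of the control IgG library (median 5526 UMIs) and 11269 of the anti-CD3L1 library (median 8267 UMIs) remained, and 26 barcodes occurred in both. A UMI is a molecular tag that marks 1 captured RNA molecule. Cells were put into classes by fixed marker lists that hold none of the 5 genes, and the names are written as "-like" for this reason. Neutrophil-like cells numbered 5647 in control IgG and 530 in anti-CD3L1, monocyte-like cells 1250 and 2523, macrophage-like cells 548 and 3945, and NK-like cells 157 and 903. Plasmacytoid dendritic cell-like (pDC-like) cells numbered 17 and 167 and conventional dendritic cell-like (cDC-like) cells 17 and 253. All markers of these classes were detected in the class they define. Cells under every gate numbered 665 and 2065, and cells near 2 gates 212 and 591. Although the library median was higher in anti-CD3L1, its cells had fewer UMIs within the compared classes. The median was 4519 UMIs in control IgG and 2173 in anti-CD3L1 for neutrophil-like cells, and 12230.5 and 7819 for monocyte-like cells. For macrophage-like cells it was 13822 and 9697, and for NK-like cells 11335 and 8702. In GENCODE M21 (GRCm38) Cybb lies on chrX:9435252-9487771, Cyba on chr8:122424776-122432930, Ncf1 on chr5:134220053-134229625, Ncf4 on chr15:78244801-78262580 and Rac2 on chr15:78559167-78572783. The submitters' processing notes name GRCm39, so these positions are those of another build. All 5 are protein-coding genes counted whole, without separation of exons and isoforms, and the gene model Gm20388 on the other strand spans the Cyba locus.

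RefSeq's table of start sites (GRCm38.p6) held 3 of the 5 genes, Cybb, Cyba and Ncf1. Their 250 bases before the start are shown because Cybb and Ncf1 shared their highest class in the anti-CD3L1 library while Cyba did not. The letters are 5′ to 3′ on the strand of the gene, and capitals mark GGAA, the core read by the ETS family that includes PU.1, and CCAAT, on either strand.
Cybb, chrX:9469325-9469574, minus strand: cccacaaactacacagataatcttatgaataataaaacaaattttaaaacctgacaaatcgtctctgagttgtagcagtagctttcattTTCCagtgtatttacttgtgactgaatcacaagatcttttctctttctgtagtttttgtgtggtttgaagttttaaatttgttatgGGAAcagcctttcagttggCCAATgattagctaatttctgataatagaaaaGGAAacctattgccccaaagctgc
Ncf1, chr5:134229626-134229875, minus strand: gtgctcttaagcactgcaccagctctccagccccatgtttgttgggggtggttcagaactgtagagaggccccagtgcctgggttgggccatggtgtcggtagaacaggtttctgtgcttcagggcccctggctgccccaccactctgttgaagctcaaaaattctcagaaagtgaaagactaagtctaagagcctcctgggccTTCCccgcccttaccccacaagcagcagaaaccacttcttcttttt
Cyba, chr8:122432941-122433190, minus strand: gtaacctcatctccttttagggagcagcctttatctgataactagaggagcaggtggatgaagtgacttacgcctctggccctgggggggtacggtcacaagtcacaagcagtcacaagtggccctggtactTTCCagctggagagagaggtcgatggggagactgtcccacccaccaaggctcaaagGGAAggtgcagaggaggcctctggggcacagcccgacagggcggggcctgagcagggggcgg
GGAA occurred at 3 places in the Cybb window, 2 in that of Cyba and 1 in that of Ncf1, and 93.4% of all 32851 windows of this length held it. CCAAT occurred once, in the Cybb window, starting 56 bases before the start, and 33.8% of all windows held it. The longer letters GAGGAA were in none of the 3 windows and in 23.3% of all windows. The Cybb window had 34.0% G or C, against 54.4% for Ncf1, 60.0% for Cyba and a median of 52.4% over all windows. In GENCODE M21 the Cybb window lies in an intron of a longer transcript of the gene. These matches describe the letters and not binding.

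The subunits did not follow a single order over cell classes. Levels are CPM, the UMIs of a gene per 1000000 UMIs of all genes, over the summed cells of a class, and each gene is compared with itself. Among the 4 classes with at least 50 cells in control IgG, Ncf1, Ncf4 and Rac2 were highest in neutrophil-like cells, and Cybb and Cyba in monocyte-like cells. Among the 8 such classes in anti-CD3L1, Ncf4 and Rac2 were highest in neutrophil-like cells, Cyba in macrophage-like cells, and Cybb and Ncf1 in pDC-like cells.

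**Figure D1:**
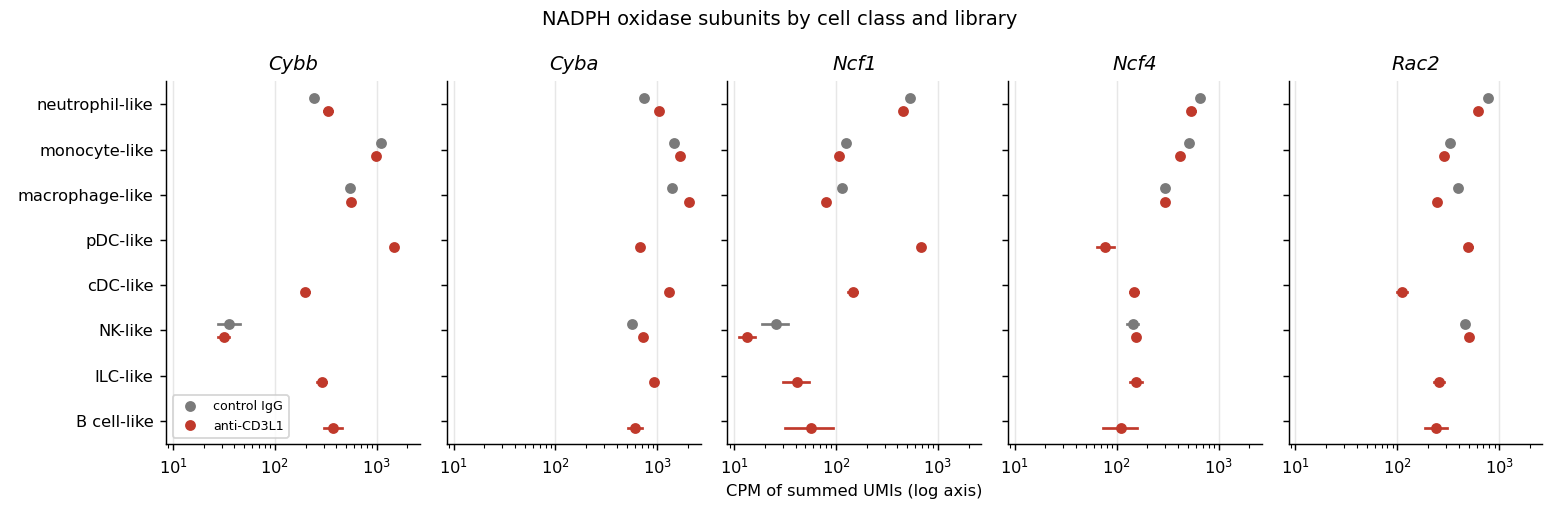
CPM of each subunit (log axis) in each class of at least 50 cells, grey for control IgG and red for anti-CD3L1, with lines for exact Poisson 95% intervals. Cybb and Ncf1 reach their highest red points in pDC-like cells, at 1491 and 675 CPM, where Ncf4 is at its lowest, 77.4 CPM. The Ncf4 intervals of pDC-like and B cell-like cells overlap.

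Cybb, the catalytic subunit, was at 243 CPM in neutrophil-like cells of control IgG and 336 CPM in those of anti-CD3L1. In monocyte-like cells it was at 1103 and 985 CPM. In macrophage-like cells it was at 545 and 563 CPM. Neutrophil-like cells thus held less Cybb on the CPM scale than either other phagocyte class. The level was 0.220 times the monocyte-like level in control IgG (interval 0.214 to 0.226) and 0.341 times in anti-CD3L1 (0.311 to 0.373). Of all genes with at least 20 CPM in either class, 75.7% and 75.5% had a ratio at or above these. Against macrophage-like cells the Cybb level was 0.445 and 0.596 times. There 50.7% and 52.7% of genes lay at or above, so Cybb was near the middle of all genes. In anti-CD3L1 the neutrophil-like and B cell-like intervals overlapped (B cell-like 373 CPM), and cDC-like cells were at 200 CPM. The 27 neutrophil-like cells with the most UMIs in anti-CD3L1 had 996 CPM of Cybb, against 174 CPM in the other 503. The anti-CD3L1 folds, intervals and order given here include these 27 cells, and 174 CPM lies under the cDC-like level. Of the classes with at least 50 cells, NK-like cells had the lowest values, at 35.6 and 31.6 CPM. The 31 fibroblast-like cells of anti-CD3L1 had 5.18 CPM (interval 1.07 to 15.1).

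Cyba is also the partner of other NADPH oxidases and is made in many cell types. It was at 569 CPM or more in each class of at least 50 cells, in both libraries. Its level was 733 and 1034 CPM in neutrophil-like, 1440 and 1675 CPM in monocyte-like and 1388 and 2034 CPM in macrophage-like cells, naming control IgG first. NK-like cells held 569 and 730 CPM. The 31 fibroblast-like cells of anti-CD3L1 had 216 CPM (interval 180 to 257). Droplets with 10 to under 100 UMIs, taken to hold no cell, had 1086 and 1709 CPM of Cyba, near its level over all kept cells of 1036 and 1644 CPM.

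Ncf1, the organiser, was far higher in neutrophil-like cells than in the mononuclear phagocytes. It was at 536 and 454 CPM in neutrophil-like cells, at 126 and 106 CPM in monocyte-like cells and at 115 and 78.8 CPM in macrophage-like cells. NK-like cells had 25.4 and 13.4 CPM. Its neutrophil-like level was 4.27 times the monocyte-like level in control IgG (4.07 to 4.47) and 4.30 times in anti-CD3L1 (3.94 to 4.70), so this fold was nearly the same in both libraries. The monocyte-like and macrophage-like intervals overlapped in control IgG.

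Ncf4 was at 651 and 542 CPM in neutrophil-like cells, 518 and 421 CPM in monocyte-like cells and 296 and 297 CPM in macrophage-like cells. The neutrophil-like level was 1.26 times the monocyte-like level in control IgG (1.23 to 1.29) and 1.29 times in anti-CD3L1 (1.20 to 1.39). Rac2 was at 771 and 621 CPM in neutrophil-like cells, 332 and 288 CPM in monocyte-like cells and 397 and 245 CPM in macrophage-like cells. NK-like cells held 460 and 504 CPM of Rac2, above both mononuclear phagocyte classes, and lymphocytes are known to use this GTPase as well.

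The pDC-like cells stood apart in the makeup of the complex. These cells are known for making type I interferon. In anti-CD3L1 they had 1491 CPM of Cybb, 1.51 times the monocyte-like level (1.45 to 1.58). Of all genes with at least 20 CPM in either class, 40.2% had a ratio at or above it. Ncf1 was at 675 CPM, 1.49 times the neutrophil-like level (1.34 to 1.65). For that contrast 60.8% of genes had a ratio at or above it, so the Ncf1 ratio was not above that of most genes. Their Ncf4 was 77.4 CPM, 0.143 times the neutrophil-like level (0.116 to 0.175), with 92.8% of genes at or above that ratio. Low Ncf4 was not theirs alone. The B cell-like interval overlapped theirs (B cell-like 109 CPM), and cDC-like cells were at 147 CPM. NK-like cells were at 153 CPM and innate lymphoid cell-like cells at 156 CPM. Against cDC-like cells the pDC-like ratio was 0.525 (0.421 to 0.650). Rac2 was at 499 CPM and Cyba at 683 CPM. The 17 pDC-like cells of control IgG, too few for the order of classes, had 1238 CPM of Cybb, 1051 CPM of Ncf1 and 74.8 CPM of Ncf4, so high Cybb and Ncf1 beside low Ncf4 were found in both libraries. Ncf1 in these 17 cells was 1.96 times the neutrophil-like level (1.71 to 2.24), with 59.3% of genes at or above that ratio. Their Cybb was 1.12 times the monocyte-like level (0.99 to 1.27), within counting error. Neutrophil markers summed to 336 CPM in pDC-like cells of anti-CD3L1 and 687 CPM in those of control IgG, against 93785 and 183686 CPM in neutrophil-like cells. The part of neutrophil RNA in the pDC-like values was not tested.

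Shares of single cells with a UMI were drawn from the same UMIs as the CPM values, so they are not separate support for the pattern. Each cell was thinned to 1000 UMIs so that shares of cells with a UMI could be compared across depths. Cybb was found in 76.0% of pDC-like cells of anti-CD3L1 (exact binomial interval 68.8 to 82.3), 55.5% of monocyte-like, 38.8% of macrophage-like and 12.5% of neutrophil-like cells. Another random draw to the same depth gave 67.1% for Cybb in the pDC-like cells, so the intervals do not cover the draw. Ncf1 was found in 50.9% of pDC-like cells, 31.7% of neutrophil-like cells and 7.29% of macrophage-like cells. In NK-like cells, taken as the low class for both genes, the shares were 2.0% for Cybb and 1.56% for Ncf1. Ncf4 was found in 5.99% of pDC-like and 41.1% of neutrophil-like cells of anti-CD3L1. Before thinning, 98.8% of pDC-like cells had a Cybb UMI and 92.8% an Ncf1 UMI at a median of 8006 UMIs, against 10.1% and 9.41% of NK-like cells at a median of 8702 UMIs.

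Cybb and Ncf1 were found together in 38.9% of thinned pDC-like cells (31.5 to 46.8), and in 5.62% of monocyte-like, 4.56% of neutrophil-like and 2.76% of macrophage-like cells of the same library. Ncf1 and Ncf4 were found together in 17.8% of neutrophil-like cells of control IgG and 16.3% of those of anti-CD3L1, and in 2.40% of pDC-like cells. Cybb and Cyba were found together in 43.2% and 43.3% of monocyte-like cells and in 6.30% and 7.34% of neutrophil-like cells. At this depth a missing UMI does not show that a cell lacks the RNA. A joint share depends on the share of cells with each gene alone, here 76.0% for Cybb and 50.9% for Ncf1 in pDC-like cells. Whether the genes of a pair went together beyond that was not tested.

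**Figure D2:**
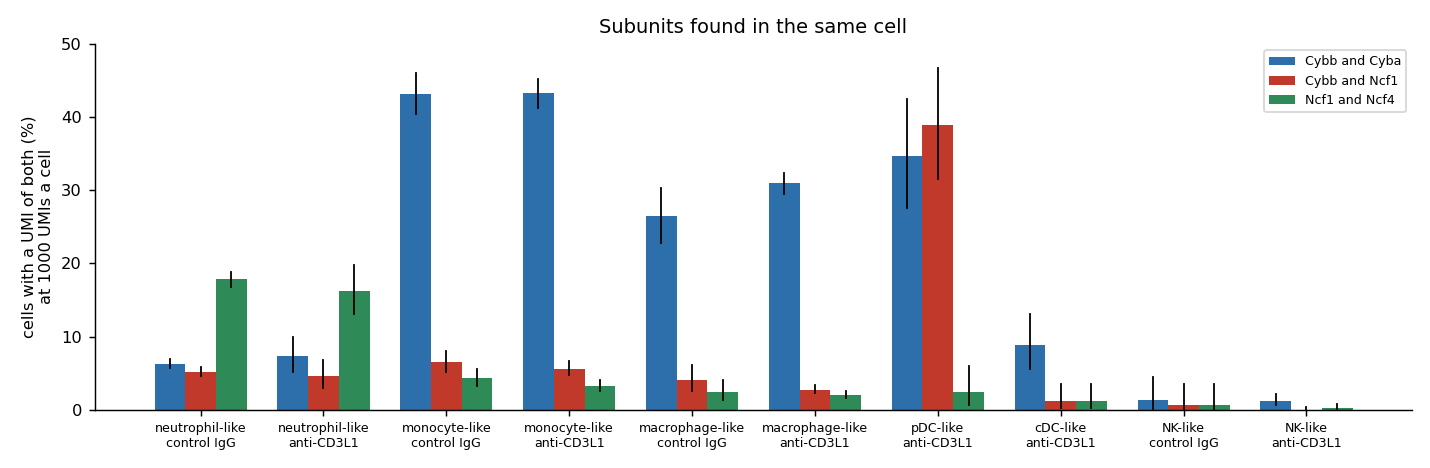
Share of cells (%) with a UMI of both genes of a pair after thinning to 1000 UMIs a cell, with exact binomial 95% intervals, for the phagocyte-like, dendritic cell-like and NK-like classes of at least 50 cells. The pDC-like bar for Cybb and Ncf1 stands at 38.9%, and the Ncf1 and Ncf4 bars are highest in neutrophil-like cells, at 17.8% and 16.3%. Each bar depends on the shares of the single genes.

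Within neutrophil-like cells Cybb was unevenly held. At 1000 UMIs a cell, the 5% of cells with the most Cybb UMIs held 60.9% of them in control IgG and 62.8% in anti-CD3L1. The matching shares of the other subunits lay between 21.1% and 31.5%, but sparse genes give high shares by counting alone. The variance over cells divided by the mean, which is 1 for counts that differ by chance only, was 2.29 for Cybb in control IgG and 1.92 in anti-CD3L1. For Cyba, Ncf4 and Rac2 it was between 1.09 and 1.28 in the same cells, and for Ncf1 1.24 and 1.45. In monocyte-like cells Cybb stood at 1.33 and 1.49.

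**Figure D3:**
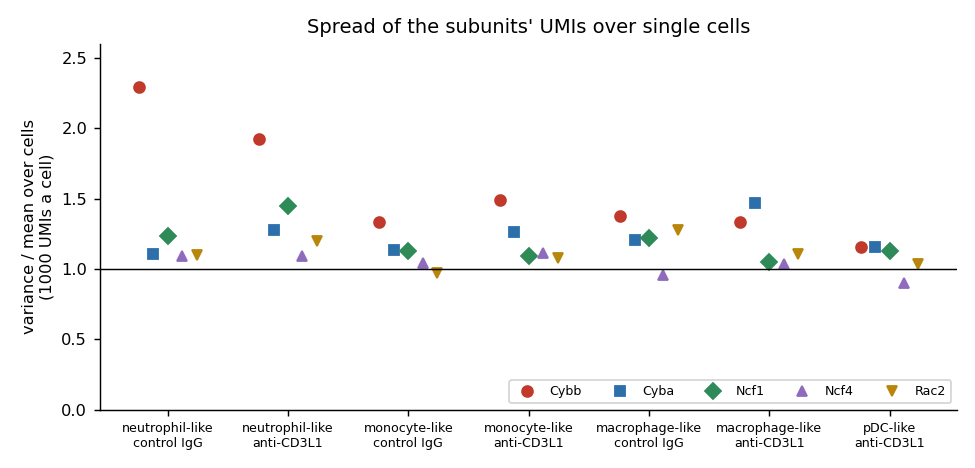
Variance over the mean of each subunit's UMIs over cells thinned to 1000 UMIs, by class and library, with a line at 1 for counting alone. Cybb in neutrophil-like cells lies above all other points, at 2.29 and 1.92.

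Neutrophil-like cells with at least 2 Cybb UMIs after thinning numbered 255 of 5537 in control IgG (4.61%) and 22 of 504 in anti-CD3L1 (4.37%). They were chosen by Cybb, so what follows is a description. In control IgG they were compared with the 4779 cells that had none, and held 734 against 731 CPM of Cyba, 578 against 528 CPM of Ncf1, 607 against 655 CPM of Ncf4 and 677 against 776 CPM of Rac2. Neutrophil markers summed to 155499 against 186577 CPM, monocyte markers to 2074 against 2088 CPM and macrophage markers to 178 against 146 CPM. Among genes with at least 100 CPM in either set, taken in order of the log2 ratio after adding 10 CPM and chosen after their values were seen, the leading ones included Il1a (1385 against 560 CPM), Il23a (266 against 103 CPM), H2-Eb1 (104 against 37.8 CPM), Cd74 (255 against 106 CPM) and Gbp5 (197 against 81.6 CPM). Il1a and Il23a encode cytokines, H2-Eb1 and Cd74 take part in MHC class II presentation, and Gbp5 is an interferon-induced GTPase. Crip1 (117 against 32.1 CPM) and Pid1 (103 against 27.5 CPM) had the highest ratios. Ctss, Saa3 and Ereg were the other leading genes of control IgG. In anti-CD3L1 the leading genes of the 22 cells were others and formed a mixed list. Camp was at 2378 against 147 CPM, Ngp at 4582 against 302 CPM and Ltf at 1817 against 240 CPM, all granule proteins of maturing neutrophils. Beside them stood Cd36 at 396 against 17.5 CPM, Ace at 174 against 6.13 CPM, Fabp4 at 203 against 7.88 CPM and Pparg at 222 against 21.0 CPM. The rest of the leading genes were Slc8a1, Uhrf2 and Klf4. These 22 cells had 735 CPM of Ncf4 against 525 CPM in the 443 cells with none, 541 against 457 CPM of Ncf1, 512 against 667 CPM of Rac2 and 899 against 1013 CPM of Cyba. Their neutrophil markers summed to 73633 against 99976 CPM, monocyte markers to 1904 against 1430 CPM and macrophage markers to 532 against 913 CPM.

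Cybb also varied with interferon-response genes within a class. Cells were ranked by their mean log level of 7 measured interferon-response genes, and the 25% of cells with the highest score were set against the 25% with the lowest. In macrophage-like cells Cybb was higher in the high-score cells by 0.52 on the log2 scale in control IgG (0.40 to 0.65) and by 0.50 in anti-CD3L1 (0.44 to 0.56), whereas Cyba was lower, with log2 ratios of -0.11 and -0.28. In neutrophil-like cells the Cybb ratio was 0.45 in control IgG (0.36 to 0.55) and 0.08 in anti-CD3L1, where the interval ran from -0.30 to 0.46. In monocyte-like cells it was -0.11 and -0.23. In control IgG the high-score neutrophil-like cells had a median of 4753 UMIs against 3945, and the part of depth was not tested. These ratios were not ranked against those of all genes. Cells here are not replicates, and cells of 1 library share their tumors. For Ncf1 the macrophage-like ratio was 0.03 in control IgG (-0.26 to 0.32) and 0.20 in anti-CD3L1 (0.06 to 0.35). Folr2, a marker of a resident-type macrophage subset, was used for a second split of macrophage-like cells. Cells with a Folr2 UMI had a Cybb log2 ratio of -0.02 in control IgG (-0.11 to 0.07) and -0.23 in anti-CD3L1 (-0.27 to -0.19) against cells without one, and for Ncf1 of 0.33 and 0.24.

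The comparison of the libraries asked whether the subunits differed between anti-CD3L1 and control IgG within the same class. With the main settings no member differed 2-fold in neutrophil-like, monocyte-like or macrophage-like cells. With a higher minimum of UMIs per barcode, Cybb in neutrophil-like cells had a log2 ratio of 1.02 (0.87 to 1.16). Over all genes with at least 20 CPM in either library, 27.0% of 4454 differed 2-fold in neutrophil-like cells, 6.1% of 5705 in monocyte-like cells and 4.27% of 5875 in macrophage-like cells. Ncf1 and Rac2 were lower in anti-CD3L1 in all 3 classes, and Ncf4 in neutrophil-like and monocyte-like cells. Cyba was higher in all 3 on the CPM scale, but not in neutrophil-like cells once the ratios were scaled by the median gene (-0.01). NK-like cells also had lower Ncf1 (-0.92, interval -1.41 to -0.41, from 50 and 118 UMIs) and higher Cyba (0.36). Their Rac2 was higher (0.13, interval 0.03 to 0.24), and Cybb and Ncf4 were within counting error. Neutrophil markers summed to 2860 and 124 CPM in NK-like cells, and their part was not tested.

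In macrophage-like cells Cyba was higher in anti-CD3L1, at 2034 against 1388 CPM, a log2 ratio of 0.55 (0.52 to 0.58). Only 6.93% of all genes had a ratio at or above it. Rac2 was lower, at 245 against 397 CPM (-0.70, interval -0.76 to -0.64), and 4.99% of genes had a ratio at or below it. Ncf1 was lower too, at 78.8 against 115 CPM (-0.55, interval -0.66 to -0.44). Cybb (0.05, interval -0.0016 to 0.094) and Ncf4 (0.01, interval -0.06 to 0.07) were within counting error. So 1 of the 5 members lay above 0, beside 34.0% of all genes, and 2 of the 5 below 0, beside 30.5%. The median log2 ratio of all genes was 0.02. Neutrophil markers summed to 3968 CPM in control IgG and 257 CPM in anti-CD3L1 in this class, and their part in the lower values was not tested. With free RNA subtracted at the most that foreign markers allow (5.50% and 3.87% of the UMIs), the Ncf1 ratio was -0.44. That step does not take out droplets that held more than 1 cell.

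In monocyte-like cells the differences were smaller. Cyba was higher (0.22, interval 0.19 to 0.24) and Cybb (-0.16), Ncf1 (-0.25), Ncf4 (-0.30, interval -0.34 to -0.26) and Rac2 (-0.20) were lower. That is 1 of 5 above 0, beside 54.4% of all genes, and 4 of 5 below 0, beside 22.8%. The median of all genes was 0.17, and against it Cyba lay only 0.05 higher. Neutrophil markers summed to 6083 CPM in control IgG and 1114 CPM in anti-CD3L1 in this class, and their part in the lower values was not tested.

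In neutrophil-like cells the level of all genes moved, with a median log2 ratio of 0.51. The neutrophil markers themselves took 183686 CPM in control IgG and 93785 CPM in anti-CD3L1, and their part in that shift was not tested. Cybb (0.47) and Cyba (0.50, interval 0.42 to 0.57) were higher on the CPM scale, 2 of 5 members beside 62.4% of all genes. Ncf1 (-0.24), Ncf4 (-0.26) and Rac2 (-0.31, interval -0.41 to -0.22) were lower, 3 of 5 beside 11.1%. Relative to the median gene, Cybb and Cyba did not stand above (-0.04 and -0.01), and both scalings put Ncf1, Ncf4 and Rac2 below. The Cybb ratio rested on few cells. The 27 deepest neutrophil-like cells of anti-CD3L1, 5% of the class, had 996 CPM of Cybb against 174 CPM in the other 503 cells, and their macrophage markers were at 1804 against 644 CPM. In control IgG the deepest 283 had 345 against 222 CPM. Without the deepest 5% the Cybb ratio was -0.35 (-0.56 to -0.14), and Cyba remained higher at 0.36.

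**Figure D4:**
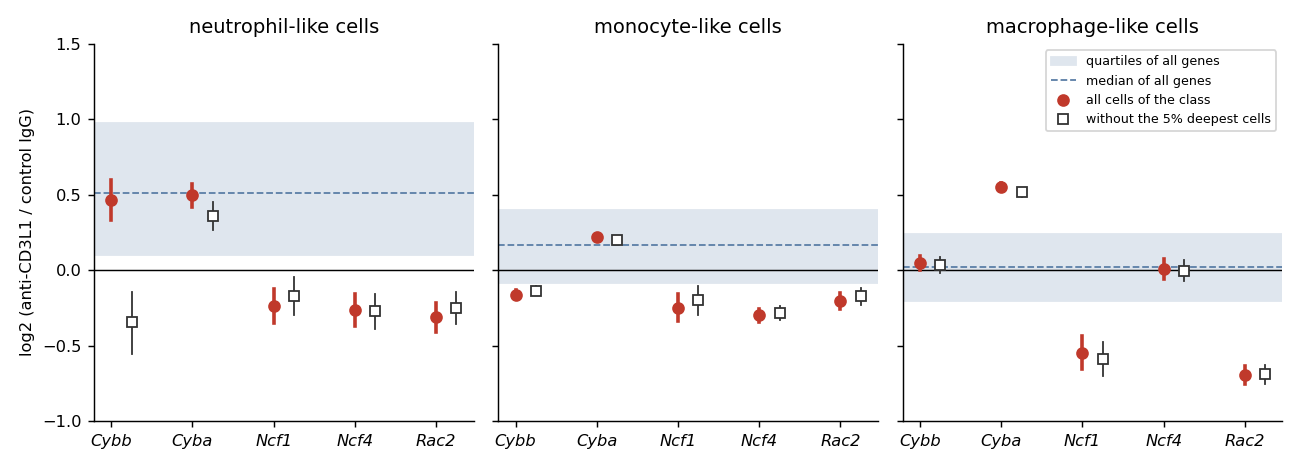
log2 of the anti-CD3L1 level divided by the control IgG level for each subunit in 3 classes (red points), with exact 95% intervals for counting error, and the same without the 5% of cells with the most UMIs (open squares). The dashed line and band are the median and quartiles of all genes. Cybb in neutrophil-like cells has its square well across 0 from its point, at -0.35 against 0.47. Ncf4 in macrophage-like cells lies close to 0 in both, with its square just below.

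On the CPM scale Ncf1, Ncf4, Rac2 and Cyba differed more over all kept cells than within these 3 classes, and Cybb did not. A level over all cells mixes the share of UMIs of each class with the levels within classes. A class's share of UMIs depends on its number of cells and on its UMIs per cell, which were not separated here. Ncf1 was at 319 CPM in control IgG and 95.1 CPM in anti-CD3L1 (log2 ratio -1.74), Rac2 at 548 and 279 CPM (-0.98), Ncf4 at 516 and 298 CPM (-0.79), Cyba at 1036 and 1644 CPM (0.67) and Cybb at 514 and 588 CPM (0.19). The median log2 ratio of all genes over all kept cells was 0.55. A ratio at or above that of Cyba was found for 41.5% of genes, and at or above that of Cybb for 69.6%. A ratio at or below that of Ncf1 was found for 3.50%. Within macrophage-like cells 6.93% of genes lay at or above Cyba, so Cyba stood out from all genes more there. Neutrophil-like cells held 79.6% of the Ncf1 UMIs of control IgG and 6.99% of those of anti-CD3L1. Giving the control IgG class levels the class shares of UMIs of anti-CD3L1 gave a log2 ratio of -1.27 for Ncf1, -0.63 for Ncf4 and -0.59 for Rac2. Giving the control IgG shares the class levels of anti-CD3L1 gave -0.27, -0.25 and -0.32. For Cyba the levels gave 0.39 and the shares 0.26 on the CPM scale. The levels include the neutrophil-like log2 ratio of 0.50, which was near the median gene of that class (0.51). Neutrophil-like cells held 47.4% of the UMIs of control IgG, so these Cyba values are not ranked.

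**Figure D5:**
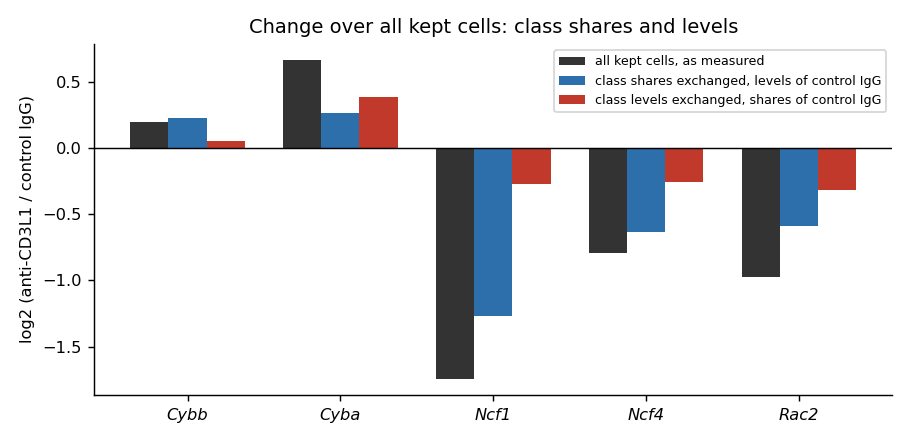
log2 of the anti-CD3L1 level divided by the control IgG level over all kept cells (black), with the class shares of UMIs exchanged only (blue) and the class levels exchanged only (red). For Ncf1 the black bar is at -1.74, the blue at -1.27 and the red at -0.27.

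Other genes of the complex and its assembly differed less than 2-fold between the libraries. Rac1, the widely used relative of Rac2, had log2 ratios of -0.41, -0.05 and 0.14 in neutrophil-like, monocyte-like and macrophage-like cells. In macrophage-like cells the intervals of Rac1 (0.08 to 0.21) and Rac2 lay on opposite sides of 0. Rap1a, a GTPase found with the membrane subunits, had ratios of 0.32, 0.09 and -0.23, of which the first 2 were below the median gene. Cybc1, a chaperone of the membrane subunits, was sparse, at 27.3 and 17.4 CPM in macrophage-like cells (-0.65), and Rac3 was under 20 CPM. All 9 other NADPH oxidases and partners, Nox4 and the Duox genes among them, were under 20 CPM in both libraries of these classes.

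Of the 48 pathway genes on 7 lists, 47 were analysed, and 34 reached 20 CPM in macrophage-like cells, of which 11 were higher and 17 lower in anti-CD3L1. In monocyte-like cells 10 of 33 were higher and 19 lower, and in neutrophil-like cells 18 of 32 were higher and 8 lower. The shares of all genes given above are the background to these counts. The receptors that trigger the burst were lower for all 6 measured in monocyte-like cells and 5 of 6 in macrophage-like cells, where Fcgr3 was higher (0.44). In neutrophil-like cells 1 was higher, 3 were lower and 2 were within counting error. The formyl peptide receptor gene Fpr1 was at 1026 and 231 CPM in neutrophil-like cells (-2.15), 102 and 9.0 CPM in monocyte-like cells (-3.50) and 80.3 and 4.3 CPM in macrophage-like cells (-4.24). Fpr2 had ratios of -1.92, -1.94 and -2.52. Itgam, the integrin chain CD11b, was lower 2-fold or more in monocyte-like (-1.20) and macrophage-like cells (-1.25) and at 0.33 in neutrophil-like cells, below the median gene. Fpr1 was most abundant in neutrophil-like cells, and the neutrophil marker sums given above were also lower in the other classes. The part of neutrophil RNA in these Fpr1 ratios was not tested. With free RNA subtracted the macrophage-like Fpr1 ratio was -3.91.

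Among genes that handle superoxide and peroxide, the mitochondrial superoxide dismutase gene Sod2 was lower 2-fold or more in all 3 classes, at 1854 and 545 CPM in neutrophil-like cells (-1.77), 1344 and 412 CPM in monocyte-like cells (-1.71) and 509 and 248 CPM in macrophage-like cells (-1.04). Gclm, for glutathione synthesis, was lower in neutrophil-like (-1.74) and macrophage-like cells (-1.10). Hmox1, the inducible heme oxygenase, was at 642 and 273 CPM in macrophage-like cells (-1.23) and had ratios of -0.85 in monocyte-like cells and 0.43 in neutrophil-like cells, the latter below the median gene. Slc7a11, the cystine transporter, was at 310 and 105 CPM in monocyte-like cells (-1.57). Prdx1 was higher in neutrophil-like cells, at 23.7 and 91.4 CPM (1.95), with 245 CPM in the 27 deepest cells of anti-CD3L1 and 53.8 CPM in the others. Gpx1 was higher in all 3 classes, with ratios of 0.66, 0.28 and 0.62, the first near the median gene of neutrophil-like cells (0.51).

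Of the signalling genes, Prex1, an exchange factor for Rac, was 2-fold higher in neutrophil-like cells (1.41), and Prkcb, a kinase that phosphorylates p47phox, was 2-fold lower in macrophage-like cells, at 298 and 119 CPM (-1.32). In neutrophil-like cells Prkcb was higher, at 139 and 243 CPM (0.80, interval 0.64 to 0.96). The median gene of neutrophil-like cells was at 0.51, and relative to it both Prex1 and Prkcb were raised by less. Of the transcription factors of the subunit genes, Spi1, which encodes PU.1, was at 600 and 634 CPM in macrophage-like cells and 623 and 622 CPM in monocyte-like cells. Irf1 was higher in monocyte-like (1.12), macrophage-like (0.77) and neutrophil-like cells (0.56), where its interval (0.42 to 0.69) held the median gene. Irf8 was at 105 and 241 CPM in monocyte-like cells (1.20) and at 5.1 and 48.1 CPM in neutrophil-like cells (3.24). The 27 deepest neutrophil-like cells of anti-CD3L1 had 167 CPM of Irf8, against 19.1 CPM in the other 503 cells. In control IgG the deepest 283 had 17.5 CPM, against 2.57 CPM in the other 5364 cells. The intervals of the other cells did not overlap between the libraries, so higher Irf8 was not limited to the deepest cells. Both levels of the other cells lay under the minimum of 20 CPM, so no ratio is given for them.

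The genes whose class pattern was most like that of each member were found by Pearson's r of log2(CPM + 10) over 12 class and library units, 4 from control IgG and 8 from anti-CD3L1, among 5804 genes. Units of 1 library share depth and free RNA, so r is a description. They were Rbm47 (0.95), Mpeg1 (0.94) and Rilpl2 (0.92) for Cybb, Tbxas1 (0.96), Vamp8 (0.96) and Tmem106a (0.95) for Cyba, and Gng12 (0.93), Hspbap1 (0.92) and Tet2 (0.91) for Ncf1. For Ncf4 they were Emilin2 (0.98), Osm (0.98) and Pkm (0.98), and for Rac2 Gm2245 (0.93), Tmem33 (0.86) and Tsc22d4 (0.84). Between the members themselves r ranged from -0.43, for Cyba and Rac2, to 0.60, for Cybb and Ncf1.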

How the data were processed

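For each of the 2 libraries the deposited values are whole UMI counts by gene, given for every barcode and without a call of cells. Per the submitters' processing notes the tools were Cell Ranger 7.1.0 and Seurat 5.1.0 with GRCm39. A deposited table of the authors' own gene comparison was not used. Here, barcodes with at least 500 UMIs, more than 200 and fewer than 6000 genes and under 5% mitochondrial UMIs were kept. These were 8557 of 1084690 and 11269 of 1548857 barcodes, holding 89.9% and 90.4% of 74850604 and 108246719 UMIs, for control IgG and anti-CD3L1.

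A cell was scored by its mean log(1 + count per 10000 UMIs) over each of 12 marker lists (83 genes), divided by a minimum for that list (0.5 to 1.5, set on the distributions of the scores). It took the best list if that reached 1 and the next list was at most 0.8 of it. No doublet caller was run. Counts were summed per class and library. CPM has exact Poisson intervals, ratios exact conditional binomial intervals and shares exact binomial intervals, all at 95% and for counting error only. An interval that excludes 0 is a difference between these 2 libraries, not between treatments. Library comparisons used genes with at least 20 CPM in 1 library. Named were the 5 members, pathway genes differing at least 2-fold in a phagocyte class, all of the list on the rest of the complex, and 3 genes most like each member. Other genes named, chosen after their values were seen, are marked or illustrate a list. A pair of pathway genes was left out of the lists and is not reported here, and 47 of the remaining 48 were in the tables analysed. Members and lists were chosen with earlier results of these data known. The interval and thinning code was tested on simulated data. 10 alternatives were run. Python 3.11.15, numpy 2.4.6, scipy 1.17.1 and pandas 2.3.3 were used.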

Additional observations from a re-analysis of the deposited data

Results flagged for a closer look

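On the CPM scale Cybb moved in opposite directions in 2 classes under the same contrast of libraries. The ratio between the libraries, with anti-CD3L1 as numerator, was 0.47 on the log2 scale in neutrophil-like cells and -0.16 in monocyte-like cells, a gap of 0.631. The difference was not tested, since each group had 1 library. The neutrophil-like value was -0.32 with a wider margin between marker lists and -0.35 without the deepest cells, and both put it on the same side as the monocyte-like value. With a higher minimum of UMIs per barcode the neutrophil-like value was 1.02. The median gene was at 0.51 in neutrophil-like and 0.17 in monocyte-like cells. Scaled by it, the neutrophil-like Cybb value was -0.044.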

How the results depend on the processing

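No paired analysis was possible because each group had 1 library and the labels give no shared replicate numbers. Of 150 log2 ratios of the members under 10 alternatives, 111 stayed within their counting interval, 35 moved out of it in the same direction or from a value within counting error, and 4 reversed. All 4 were in neutrophil-like cells. Cybb was -0.32 with a wider margin between the best and the next marker list, -0.35 without the 5% of cells with the most UMIs, and -0.044 when scaled by the median ratio of genes, and Cyba was -0.014 under that scaling. At a minimum of 3081 UMIs in control IgG and 2599 in anti-CD3L1, Cybb moved the other way, to 1.02 (0.87 to 1.16). That minimum left 4750 and 169 neutrophil-like cells. The number of members higher in neutrophil-like cells, 2 as reported, was 1 with the wider margin, 0 under the median scaling and 1 without the deepest cells. In macrophage-like cells it was 2 instead of 1 with up to 10% mitochondrial UMIs, with shared barcodes left out and with free RNA subtracted. The other 44 of 50 member counts stayed within 1.5 times. Neutrophil-like cells remained highest for 3 members in control IgG and 2 in anti-CD3L1 under all 10. For pathway genes, alternatives chosen after seeing the data reversed 2 ratios, both under the median scaling, namely Rap1a in neutrophil-like (-0.19) and monocyte-like cells (-0.080). Irf8 in neutrophil-like cells has no ratio with the wider margin or without the deepest cells, since genes under 20 CPM in both libraries or with no UMI in either were not given one. The neutrophil-like Cybb value of anti-CD3L1 rests on 481 UMIs.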
